A study of Sus scrofa with 15 samples.

Results

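Oxidative phosphorylation makes most of a cell's ATP in the inner mitochondrial membrane. Complex I (NADH dehydrogenase) and complex II (succinate dehydrogenase) pass electrons to ubiquinone, complex III (the cytochrome bc1 complex) passes them on to cytochrome c, complex IV (cytochrome c oxidase) hands them to oxygen, and complex V (ATP synthase) uses the proton gradient to make ATP. Most subunits are encoded in the nucleus and imported into mitochondria, while the cleavage-stage embryo inherits its mitochondria and much of its early mRNA from the oocyte. The genes described here are the nuclear-encoded subunits, taken by symbol as the NDUFA, NDUFB, NDUFC, NDUFS and NDUFV families, SDHA to SDHD, UQCR genes, CYC1, COX4 to COX8 genes and ATP5 genes. The rule found 70 of the 43294 features in the table, with 39 in complex I, 4 in complex II, 2 in complex III, 8 in complex IV and 17 in complex V. Complexes were assigned by symbol alone. Whether each product is a structural subunit of that complex, ATP5S and ATP5SL included, was not checked. NDUFA4 is kept with complex I by its symbol, although its protein is now known to associate with complex IV. The symbols UQCRC1, UQCRFS1, CYC1, COX4I1 and COX5A were not analysed here.

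Pig embryos were made by somatic cell nuclear transfer (SCNT), in which a fetal fibroblast nucleus replaces that of an oocyte, and each of the 5 groups had 3 RNA-seq libraries. PFF are the primary pig fetal fibroblasts of passages 2 to 5 that gave the nuclei. SCNT4c and SCNT8c are cloned embryos of the 4-cell and 8-cell stage. SCNT4c-KG are 4-cell cloned embryos injected 5 h after activation with 1000 ng/µl mRNA of KDM4A, a histone H3K9 demethylase, and kept for 48 h in 0.1 µM GSK126, which inhibits EZH2, the enzyme that methylates H3K27. SCNT4c-TDG are 4-cell cloned embryos whose donor fibroblasts carried a doxycycline-inducible TDG vector (thymine DNA glycosylase, an enzyme of DNA demethylation), with 500 ng/ml doxycycline from 40 to 72 h. Each embryo library pooled 30 embryos. The TDG donors were puromycin-selected transfected cells, and no SCNT group with the vector but without doxycycline, or with doxycycline alone, was analysed here, so selection, vector, doxycycline and TDG cannot be told apart. KDM4A mRNA and GSK126 were given together and cannot be told apart either. Nothing in the labels says that the libraries of a group came from separate cultures or donors, so the p-values measure only the spread between these libraries.

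The libraries held between 12354649 (SCNT4c-KG 1) and 22868038 (PFF 3) counted reads, recovered from the normalized values, and the SCNT4c-KG libraries were the shallowest. TDG normalized counts were 56925, 59944 and 49857 in SCNT4c-TDG and 1659.5, 939 and 2541 in SCNT4c. KDM4A counts were 1438, 1476 and 1429 in SCNT4c-KG, 313, 136 and 134 in SCNT4c and 852, 555 and 918 in SCNT4c-TDG, so the libraries labelled with a treatment were the highest for its agent among the embryo groups. The sample descriptions give the KG samples the names that the table uses for untreated 4-cell columns, while the table names its own KG columns. Columns were read by the group in their own name, and every comparison that uses SCNT4c or SCNT4c-KG libraries rests on that reading. All 9 tested fibroblast markers were lower in SCNT4c than in PFF and all 7 tested oocyte markers were higher, beside 38.5% and 39.7% of all features. Of these, 6 oocyte markers reached the minimum mean for testing only through SCNT4c, and LUM only through PFF, so the minimum itself set their direction. The summed fibroblast markers ran from 4236 to 5500 in SCNT4c, from 2489 to 3625 in SCNT4c-KG and from 1621 to 2167 in SCNT4c-TDG, with 1, 2 and 1 of the 10 markers at 0. The 10 summed cumulus entries ran from 1356 to 1823, from 942.5 to 1189 and from 514 to 646, with 3, 5 and 4 entries at 0. These include a second INHBA entry at 0 in these groups. Most of each sum came from the other INHBA entry, with 1566.4, 1307.3 and 1362.5 in SCNT4c and 517, 506 and 436 in SCNT4c-TDG. That entry had 517, 497 and 462 in PFF, so the sums mostly follow a single gene. Of the 8 fibroblast markers tested among the embryos, 2 rose and 4 fell in SCNT4c-KG and 3 fell in SCNT4c-TDG. Of the 3 cumulus markers tested, 1 rose and 1 fell in SCNT4c-KG and 1 fell in SCNT4c-TDG. Of the 7 oocyte markers, 2 rose and 1 fell in SCNT4c-KG and 1 rose and 2 fell in SCNT4c-TDG. Of all features, 17.6% rose and 19.6% fell in SCNT4c-KG and 15.7% and 17.6% in SCNT4c-TDG. The part of these markers in the results was not tested. SCNT8c library 3 stood apart from the other SCNT8c libraries: 48 of the 52 members tested were lower there than in both others, and 41 were within or under the SCNT4c range. Counts of calls and of overlaps in SCNT8c are therefore given with and without it. In pooled embryos, fewer cells and less RNA per cell cannot be told apart.

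Of the 70 members, 52 had a mean normalized count of at least 10 over the 12 embryo libraries and were tested. The other 18 were listed at or near 0 in every group, fibroblasts included, apart from NDUFA3 with 21.1 in SCNT8c library 3. They are NDUFA1, NDUFA3, NDUFA7, NDUFA10, NDUFB7, NDUFB8, NDUFS1, NDUFS6 and the NDUFA4 entry on chromosome 13 for complex I, SDHA, SDHB and SDHD for complex II, UQCR10, COX6B, COX8H, ATP5D, ATP5J2 and ATP5SL. These include subunits that every respiring cell needs, so the 0 cannot be read as absence. Of these 18 members, 17 shared their locus with a transcript assembled by the authors, against 18 of the 52 tested members, and which feature their reads were counted under was not tested. At the SDHB locus, where SDHB (the iron-sulfur subunit of succinate dehydrogenase) is the only known gene, the assembled transcript held 183, 222 and 199 normalized counts in PFF, 52.1, 41.1 and 6.64 in SCNT4c, 1099, 905 and 717 in SCNT4c-KG and 155, 99.7 and 137 in SCNT4c-TDG. With those counts given to SDHB, its log2 fold change was 5.12 ± 0.64 (SE, adjusted p = 2.78e-05) in SCNT4c-KG and 2.33 ± 0.64 (SE, adjusted p = 0.011) in SCNT4c-TDG against SCNT4c. The assembled transcripts brought 15 of the 18 members above the minimum. Of these, SDHB, UQCR10 and the chromosome 13 NDUFA4 entry rose and NDUFS1 and NDUFA7 fell in SCNT4c-KG, while SDHB rose and NDUFA3 and NDUFA7 fell in SCNT4c-TDG. In that fit 16.6% of all features rose and 21.1% fell in SCNT4c-KG and 13.8% and 20.9% in SCNT4c-TDG, so these counts are near or below the background. NDUFS1, a core iron-sulfur subunit that is also the only known gene at its locus, then had 15.8, 6.99 and 24.9 in SCNT4c, against 0, 0 and 1.42 in SCNT4c-KG, a log2 fold change of -3.50 ± 1.29 (SE, adjusted p = 0.043). The loci of NDUFA7, NDUFA3, UQCR10 and the chromosome 13 NDUFA4 entry hold several known genes. Here and below, the log2 fold change is on the log2(normalized count + 1) scale, the test is limma with Benjamini-Hochberg adjustment over all features tested, and a gene counts as changed, risen or fallen when it differed by more than 2-fold at an adjusted p below 0.05. Fitted values of members with only a few reads depend on the added 1 and are no bounds.

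Promoter sequences are shown for 3 members among the largest rises in SCNT4c-KG and for SDHC, the member with the largest fall in SCNT4c-TDG, chosen after their values were seen. The factors NRF1, GABP (an ETS factor) and YY1 are known regulators of respiratory genes. The windows are the 300 bases before the RefSeq gene start on Sscrofa11.1, 5′ to 3′ on the gene's strand. Capitals mark matches, on either strand and with overlaps allowed between motifs, to the letters GCGCA, any base and GCGC (NRF1), CCGGAAG (ETS) or AANATGGCG (YY1). COX5B (chr3:56632108-56632407, minus strand) and COX7A2 (chr1:90696446-90696745, plus strand) belong to complex IV, NDUFB4 (chr13:139730493-139730792, minus strand) to complex I and SDHC (chr4:89169165-89169464, minus strand) to complex II.
COX5B: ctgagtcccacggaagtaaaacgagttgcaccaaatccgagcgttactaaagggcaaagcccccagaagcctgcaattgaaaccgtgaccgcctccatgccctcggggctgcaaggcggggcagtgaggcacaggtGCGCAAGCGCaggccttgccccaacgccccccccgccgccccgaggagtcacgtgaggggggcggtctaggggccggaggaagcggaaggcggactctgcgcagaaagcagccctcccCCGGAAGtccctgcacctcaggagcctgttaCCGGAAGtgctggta
COX7A2: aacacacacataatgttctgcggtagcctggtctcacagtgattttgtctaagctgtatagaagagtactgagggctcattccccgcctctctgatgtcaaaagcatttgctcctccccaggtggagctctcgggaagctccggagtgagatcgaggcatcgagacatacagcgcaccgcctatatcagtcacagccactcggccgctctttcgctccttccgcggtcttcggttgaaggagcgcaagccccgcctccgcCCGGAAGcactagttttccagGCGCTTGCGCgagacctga
NDUFB4: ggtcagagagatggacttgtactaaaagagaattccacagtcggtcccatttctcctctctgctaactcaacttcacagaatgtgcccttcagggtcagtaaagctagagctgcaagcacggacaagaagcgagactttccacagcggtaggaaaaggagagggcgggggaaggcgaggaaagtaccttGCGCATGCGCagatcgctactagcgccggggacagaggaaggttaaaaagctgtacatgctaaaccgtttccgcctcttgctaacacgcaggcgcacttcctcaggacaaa
SDHC: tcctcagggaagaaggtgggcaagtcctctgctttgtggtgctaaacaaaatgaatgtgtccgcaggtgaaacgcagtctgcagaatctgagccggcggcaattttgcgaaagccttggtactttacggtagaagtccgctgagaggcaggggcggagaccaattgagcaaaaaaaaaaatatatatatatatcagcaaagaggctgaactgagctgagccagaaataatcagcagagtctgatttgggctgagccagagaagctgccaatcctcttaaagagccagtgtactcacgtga

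The COX5B window held an NRF1 match 164 bases and ETS matches 46 and 15 bases before the start, the COX7A2 window held an NRF1 and an ETS match, and the NDUFB4 window held an NRF1 match. None of the 3 motifs was found in the SDHC window. The windows shown for the 3 rises all held an NRF1 match and are not typical of the members. NDUFA11, the largest rise in SCNT4c-KG, is not shown. Of the 69 members with a window, 9 (13%) held the NRF1 letters, 13 (18.8%) the ETS letters and 4 (5.8%) the YY1 letters, against 4.31%, 7.49% and 1.63% of the 25874 known genes with a window. Median GC content was 57.3% for the members and 54.7% for all known genes. Among the 52 tested members, 12 of 16 with a motif and 27 of 36 without one rose in SCNT4c-KG, where 17.6% of all features rose, with median log2 fold changes of 3.15 and 3.39.

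The subunits as a group were low in SCNT4c and high in both treated groups. Summed over the 70 members, they took 0.170 ± 0.0323% (SD, n = 3) of all normalized counts in SCNT4c, 1.295 ± 0.0881% in SCNT4c-KG, 0.878 ± 0.0325% in SCNT4c-TDG, 0.404 ± 0.219% in SCNT8c (0.439, 0.603 and 0.170% in libraries 1, 2 and 3) and 0.325 ± 0.0117% in PFF. All 3 libraries of either treated group lay above every SCNT4c, SCNT8c and PFF library. For complex IV the share was 0.0202 ± 0.00399% in SCNT4c, 0.386 ± 0.0302% in SCNT4c-KG and 0.224 ± 0.0309% in SCNT4c-TDG. Complex II was represented by SDHC alone, with 0.00679 ± 0.00284% in SCNT4c and 0.000489 ± 0.000258% in SCNT4c-TDG.

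**Figure D1:**
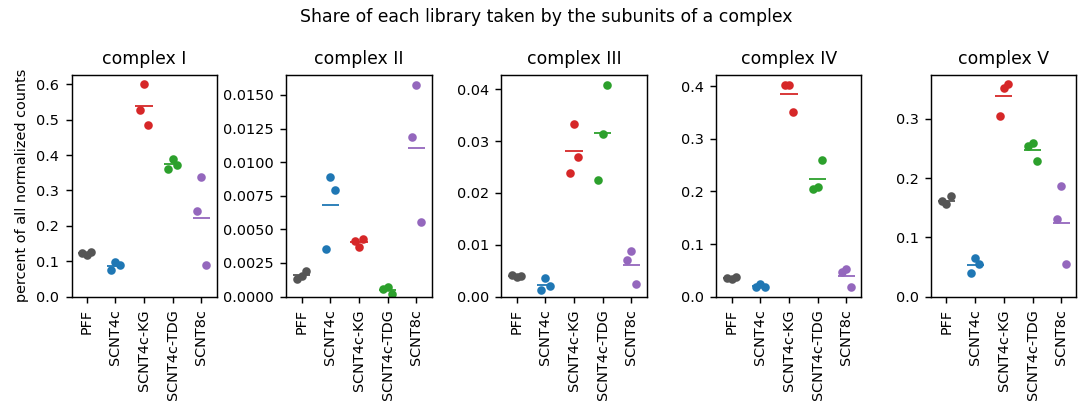
Percent of all normalized counts of a library taken by the members of each complex (vertical axis, starting at 0, scaled for each complex) in the 5 groups. Points are libraries and lines are group means (n = 3). For complexes I, III, IV and V the SCNT4c-KG and SCNT4c-TDG libraries lie above all SCNT4c libraries, and SCNT8c library 3 lies below the other SCNT8c libraries.

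Combined KDM4A and GSK126 treatment was compared with untreated 4-cell embryos to ask which subunits respond to it. In SCNT4c-KG, 39 of the 52 tested members rose and 0 fell, while 37.2% of all 18942 features changed, with 17.6% higher and 19.6% lower. By complex, 22 of 30 rose in complex I, 0 of 1 in complex II, 1 of 1 in complex III, 6 of 6 in complex IV and 10 of 14 in complex V. The median log2 fold change of the members was 3.36 against -0.30 for all features. Of these members, 5 had a mean under 10 in SCNT4c and passed the filter only through other groups. Of the 47 others, 34 rose. NDUFV2 and COX7A1, both among the rises, reached the minimum only through SCNT4c-KG, the group where they were highest. At an unadjusted p under 0.05, 42 members were higher and 0 lower, beside 21.9% and 26.1% of all features, and edgeR and DESeq2 also called 0 lower. In SCNT4c-KG 44 of the 52 members had libraries that did not overlap with SCNT4c, against 53.9% of all features.

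**Figure D2:**
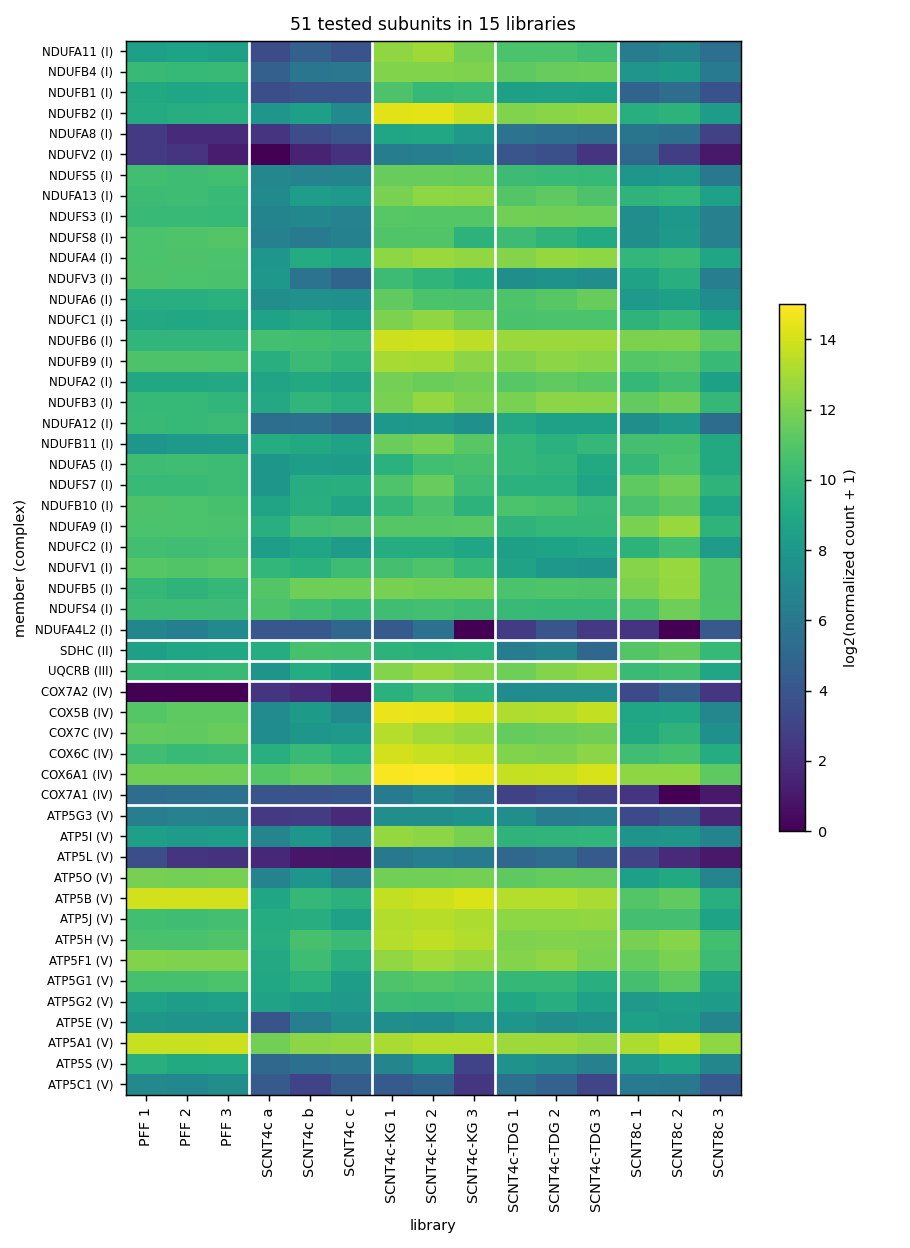
Heat map of log2(normalized count + 1) for 51 tested members (rows, by complex and by decreasing change in SCNT4c-KG) in the 15 libraries (columns). The SCNT4c columns are dark for most members, the SCNT4c-KG and SCNT4c-TDG columns are bright, and COX7A2 is at 0 in all PFF libraries.

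Complex I pumps protons while it oxidizes NADH, and most of its subunits are small accessory proteins around the core that carries the flavin and the iron-sulfur clusters. NDUFA11, an accessory subunit of the membrane arm, had 10.3, 23.6 and 13.3 normalized counts in SCNT4c, 5792, 7533 and 3766 in SCNT4c-KG and 1729, 1745 and 1337 in SCNT4c-TDG. Its SCNT4c values rest on 56 reads in all. The groups did not overlap, and the log2 fold change was 8.44 ± 0.44 (SE, adjusted p = 7.21e-09) in SCNT4c-KG and 6.66 ± 0.44 (SE, adjusted p = 1.42e-07) in SCNT4c-TDG. NDUFB4, another accessory subunit of the membrane arm, rose from 23.7, 58.5 and 61.4 in SCNT4c to 4641, 4489.8 and 4432 in SCNT4c-KG, by 6.65 ± 0.48 (SE, adjusted p = 9.99e-08) on the log2 scale. In SCNT4c-TDG it reached 2496, 2885 and 3187, a log2 fold change of 5.98 ± 0.48 (SE, adjusted p = 5.91e-07). In PFF it had 1139.8, 1069 and 1159.7, above all SCNT4c and below all treated libraries. NDUFB1 and NDUFB2, also accessory subunits, had log2 fold changes of 6.61 and 6.34 in SCNT4c-KG. NDUFB2 went from 224, 352 and 144 in SCNT4c to 20610.0, 21690.2 and 13840.4 normalized counts in SCNT4c-KG.

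The core subunits of complex I that rose in SCNT4c-KG were NDUFS3, NDUFS7, NDUFS8 and NDUFV2. NDUFS3, a core subunit of the matrix arm, had 109, 125 and 98.8 in SCNT4c, 2195, 2090.1 and 2095 in SCNT4c-KG and 3526, 3384 and 3281 in SCNT4c-TDG. It rose in both, by 4.26 ± 0.36 (SE, adjusted p = 5.14e-07) and 4.93 ± 0.36 (SE, adjusted p = 2.94e-07) on the log2 scale, or by 3.01 and 3.67 with the assembled transcript of its locus added. The iron-sulfur subunits NDUFS8 and NDUFS7 rose in SCNT4c-KG by 4.07 and 2.01, and only the NDUFS8 difference passed the test in SCNT4c-TDG (3.30 against 0.41 for NDUFS7). NDUFV2, an iron-sulfur subunit beside the flavin site, rose in SCNT4c-KG by 5.34 from 6 reads over the SCNT4c libraries, or by 2.68 ± 0.92 (SE, adjusted p = 0.032) with the assembled transcript of its locus added. NDUFV1, which binds NADH and the flavin, had 964, 765 and 1271 in SCNT4c, 1522, 1838 and 1047 in SCNT4c-KG and 405, 254 and 213 in SCNT4c-TDG. The SCNT4c-KG libraries overlapped with SCNT4c, with a log2 fold change of 0.55 ± 0.45 (SE, adjusted p = 0.34), and all SCNT4c-TDG libraries were lower, with -1.80 ± 0.45 (SE, adjusted p = 0.0061).

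The complex I members that did not pass the test in SCNT4c-KG included NDUFA4L2, NDUFA9, NDUFB5, NDUFB10, NDUFC2, NDUFS4 and NDUFV1, with log2 fold changes from -1.13 (NDUFA4L2) to 1.13 (NDUFB10). NDUFS4, an accessory subunit needed for a stable complex I, had 1705, 1381 and 1156 in SCNT4c, against 1344, 1437 and 1284 in SCNT4c-KG, and the groups overlapped. NDUFA4 had 232, 594 and 467 in SCNT4c, 5683, 6801 and 6189.9 in SCNT4c-KG and 4844, 6296 and 5585 in SCNT4c-TDG, and it rose by 3.95 ± 0.39 (SE, adjusted p = 2.57e-06) and 3.79 ± 0.39 (SE, adjusted p = 5.17e-06) on the log2 scale. Its hypoxia-responsive paralogue NDUFA4L2 had 15.8, 16.6 and 31.6 in SCNT4c, against 17.97, 46.95 and 0 in SCNT4c-KG, a log2 fold change of -1.13 ± 1.36 (SE, adjusted p = 0.53).

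Complex II is the only respiratory complex that is also an enzyme of the citric acid cycle, and SDHC, which anchors it in the membrane, was its only tested member. SDHC normalized counts were 366, 443 and 510.1 in PFF, 633, 1589.5 and 1469.6 in SCNT4c, 829.8, 727 and 774 in SCNT4c-KG and 81.95, 107 and 30.6 in SCNT4c-TDG. The SCNT4c-TDG libraries were the lowest of all groups and overlapped with none. The log2 fold change was -0.55 ± 0.49 (SE, adjusted p = 0.39) in SCNT4c-KG and -4.12 ± 0.49 (SE, adjusted p = 2.02e-05) in SCNT4c-TDG, and the direct comparison of SCNT4c-TDG with SCNT4c-KG gave -3.57 ± 0.49 (SE, adjusted p = 2.74e-04). In complex III, UQCRB, a subunit that contacts ubiquinone, had 216, 633 and 373 in SCNT4c, 4832, 6518 and 4865 in SCNT4c-KG and 3352, 4698 and 6099.8 in SCNT4c-TDG. It rose in both, by 3.85 ± 0.44 (SE, adjusted p = 1.21e-05) and 3.62 ± 0.44 (SE, adjusted p = 2.43e-05) on the log2 scale.

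**Figure D3:**
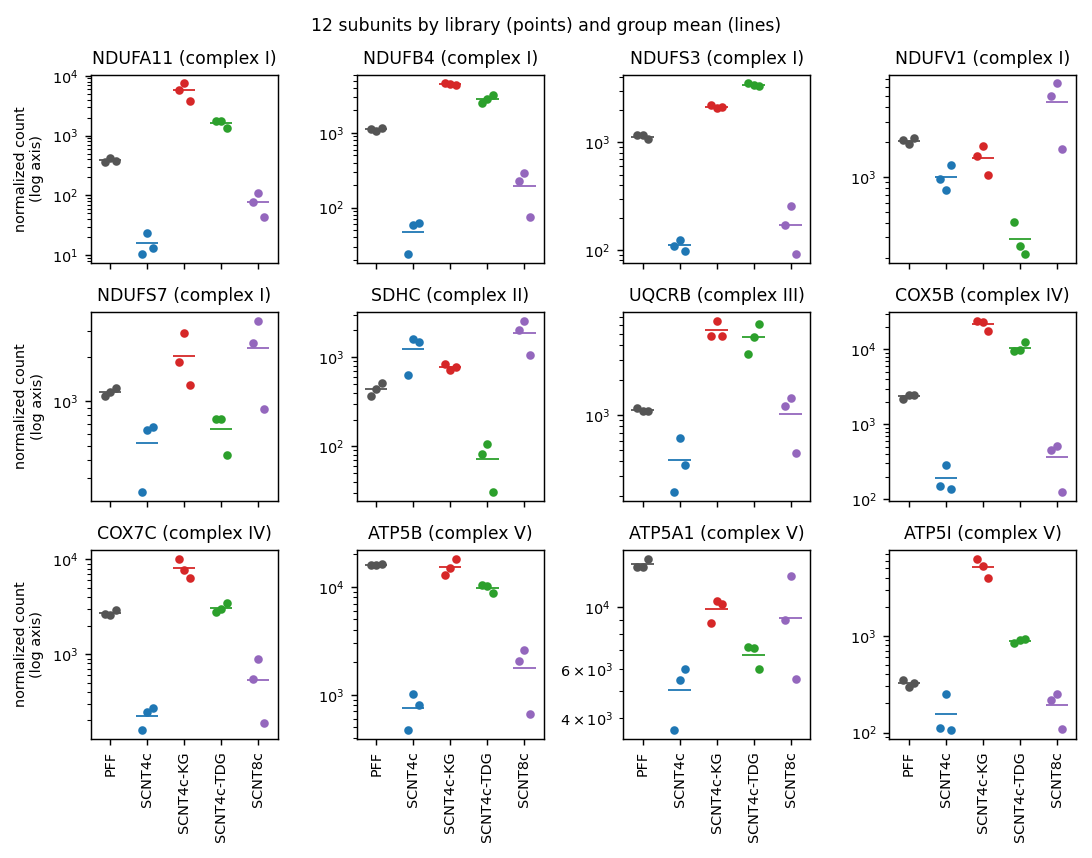
Normalized counts (log axis, scaled for each gene) of 12 members in the 5 groups, with points for libraries and lines for group means (n = 3). SCNT4c is lowest for NDUFA11, NDUFB4, COX5B, COX7C and ATP5B by mean, while SDHC and NDUFV1 are lowest in SCNT4c-TDG.

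Complex IV, the oxidase that ends the chain, had 6 tested members, and all 6 rose in SCNT4c-KG. COX5B, a zinc-binding accessory subunit, had 151, 290.1 and 137 in SCNT4c, 24114, 23537 and 17616 in SCNT4c-KG and 9420.2, 9898 and 12438 in SCNT4c-TDG. The groups did not overlap, and the log2 fold changes were 6.88 ± 0.46 (SE, adjusted p = 5.05e-08) and 5.85 ± 0.46 (SE, adjusted p = 4.93e-07). COX6A1, COX6C and COX7C, accessory subunits of the membrane part, rose in SCNT4c-KG by 3.66, 4.04 and 5.17 on the log2 scale and in SCNT4c-TDG by 2.66, 2.5 and 3.80. COX7A1 and COX7A2 are the muscle and the widely expressed isoform of the same subunit. COX7A2 had 3.94, 2.62 and 0.83 in SCNT4c (9 reads in all), 766, 1212 and 782 in SCNT4c-KG and 157, 155 and 156 in SCNT4c-TDG, and it was listed at 0 in all PFF libraries. Its log2 fold change was 8.14 ± 0.66 (SE, adjusted p = 3.43e-07) in SCNT4c-KG, or 4.63 with the assembled transcripts of its locus added, and 5.62 ± 0.66 (SE, adjusted p = 1.81e-05) or 1.80 in SCNT4c-TDG. COX7A1 had 14.2, 13.1 and 14.9 in SCNT4c, 70.2, 119 and 71.2 in SCNT4c-KG and 6.69, 9.21 and 6.12 in SCNT4c-TDG, so it rose in SCNT4c-KG (2.5 ± 0.83 SE, adjusted p = 0.028), through which alone it passed the filter, and its difference in SCNT4c-TDG did not pass the test (-0.87 ± 0.83 SE, adjusted p = 0.44). With the length trend described below removed, the COX7A1 value in SCNT4c-KG was -0.41 ± 0.82 (SE, adjusted p = 0.71), which left 5 of the 6 as rises. Per kilobase of transcript, the mean COX7A1 level was 42.9 against 5.22 for COX7A2 in SCNT4c, and 265 against 1949 in SCNT4c-KG, in the counts under their own symbols. With the assembled transcripts added, COX7A2 had 173 per kilobase in SCNT4c and 3959 in SCNT4c-KG, above COX7A1 in both groups, so the order of the isoforms in SCNT4c depends on which feature is counted.

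Complex V joins a catalytic head to a membrane rotor. ATP5B, the catalytic beta subunit, had 15826, 15813 and 16177 in PFF, 471, 1013 and 798 in SCNT4c, 12834, 14958 and 18234 in SCNT4c-KG and 10408, 10215 and 8792 in SCNT4c-TDG. All treated libraries lay above all SCNT4c libraries, with log2 fold changes of 4.39 ± 0.42 (SE, adjusted p = 2.16e-06) and 3.75 ± 0.42 (SE, adjusted p = 1.25e-05). ATP5A1, the alpha subunit that alternates with beta in the same ring, had 3626, 5457 and 5995 in SCNT4c, 8765, 10506 and 10219.6 in SCNT4c-KG and 7175, 7101 and 5974 in SCNT4c-TDG. Its log2 fold changes were 0.996 ± 0.30 (SE, adjusted p = 0.018) and 0.45 ± 0.30 (SE, adjusted p = 0.26), and neither met both criteria. ATP5C1, the gamma subunit of the central stalk, had 18.1, 6.99 and 20.8 in SCNT4c, against 17.97, 27.9 and 4.27 in SCNT4c-KG, and the groups overlapped. ATP5O, the peripheral stalk protein known as OSCP, had 105, 237 and 90.5 in SCNT4c, 3608, 3613 and 3655 in SCNT4c-KG and 2442, 2755 and 2721 in SCNT4c-TDG, and rose by 4.78 ± 0.49 (SE, adjusted p = 4.06e-06) and 4.32 ± 0.49 (SE, adjusted p = 1.33e-05) on the log2 scale. ATP5I, subunit e of the membrane part, had 112, 249 and 106 in SCNT4c, 6276, 5325 and 3939 in SCNT4c-KG and 849, 906 and 923 in SCNT4c-TDG, with log2 fold changes of 5.14 ± 0.41 (SE, adjusted p = 2.58e-07) and 2.62 ± 0.41 (SE, adjusted p = 1.89e-04).

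The 3 c-ring genes ATP5G1, ATP5G2 and ATP5G3 encode the same mature protein with different import sequences. ATP5G3 had 4.73, 5.24 and 2.49 in SCNT4c (15 reads in all), 172, 166 and 205 in SCNT4c-KG and 166, 78.2 and 88.8 in SCNT4c-TDG, with log2 fold changes of 5.18 ± 0.74 (SE, adjusted p = 8.92e-05) and 4.41 ± 0.74 (SE, adjusted p = 3.63e-04). With the assembled transcript of its locus added these were 2.81 and 2.02. ATP5G1 rose in SCNT4c-KG by 1.94 ± 0.50 (SE, adjusted p = 0.0072), a call lost with the length trend described below removed (0.07 ± 0.48 SE, adjusted p = 0.91), and ATP5G2 by 1.92 ± 0.32 (SE, adjusted p = 3.60e-04), and in SCNT4c-TDG their values of 0.84 and 0.59 did not pass the test. Per kilobase of transcript ATP5G1 had the highest mean of the 3 in every group, with 853 ± 348 in SCNT4c and 3107 ± 365 in SCNT4c-KG (SD, n = 3), against 125 ± 23.4 and 468 ± 23.3 for ATP5G2. Over all tested members, the highest mean per kilobase was that of COX6A1 in all embryo groups and that of ATP5B in PFF.

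For ATP5L and NDUFA12 the result depended on assembled transcripts at the same locus. ATP5L, subunit g of ATP synthase, had 2.37, 0.874 and 0.83 in SCNT4c, against 65.3, 87.6 and 71.2 in SCNT4c-KG under its own symbol, but 2979.8, 2867 and 2989 in SCNT4c, against 676, 792 and 1337 in SCNT4c-KG, with the assembled transcript added. Its log2 fold change of 5.05 ± 0.84 (SE, adjusted p = 3.32e-04) then became -1.72 ± 0.28 (SE, adjusted p = 2.62e-04), so its direction depends on which feature is counted. NDUFA12, an accessory subunit that rose by 2.65 in SCNT4c-KG and 3.49 in SCNT4c-TDG, had -0.01 and 0.70 with the locus added, neither of which passed the test. Adding the assembled transcripts moved the fold by over 1.5 times for 9 tested members in SCNT4c-KG and 8 in SCNT4c-TDG. Other calls also changed. In SCNT4c-TDG the rise of NDUFA8 no longer passed the test (2.21 ± 0.85 SE, adjusted p = 0.055) and NDUFA4L2 fell (-2.05 ± 0.72 SE, adjusted p = 0.038). Against PFF NDUFA4L2 lost its call (-2.44 to -0.68), and between the treatments NDUFS5 and NDUFV3 became lower calls with their values of -1.33 and -2.30 as before. The loci of ATP5L and NDUFA12 also hold other known genes, and whose reads the assembled transcripts hold was not tested. Among the 34 tested members with no assembled transcript at their locus, 26 rose in SCNT4c-KG, and 23 rose and 2 fell in SCNT4c-TDG, beside 17.6% of all features that rose in SCNT4c-KG and 15.7% and 17.6% that rose and fell in SCNT4c-TDG.

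TDG expression was compared with the same untreated SCNT4c libraries, so this comparison shares its controls with that of SCNT4c-KG. In SCNT4c-TDG, 33 of the 52 tested members rose and 3 fell, while 33.3% of all features changed, with 15.7% higher and 17.6% lower. The libraries of 43 members did not overlap between the groups, against 58.4% of all features. The members' median log2 fold change was 2.38 against -0.26 for all features. Of the 47 members with a mean of at least 10 in SCNT4c, 29 rose and 3 fell. By complex, 19 of 30 rose in complex I, 5 of 6 in complex IV, 8 of 14 in complex V and 1 of 1 in complex III. Those that fell included NDUFV1 and SDHC. Members that rose in SCNT4c-KG and did not pass the test in SCNT4c-TDG numbered 7, and NDUFB10 (1.49 ± 0.50 (SE, adjusted p = 0.033) in SCNT4c-TDG and 1.13 ± 0.50 (SE, adjusted p = 0.088) in SCNT4c-KG) was the only member the other way round.

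**Figure D4:**
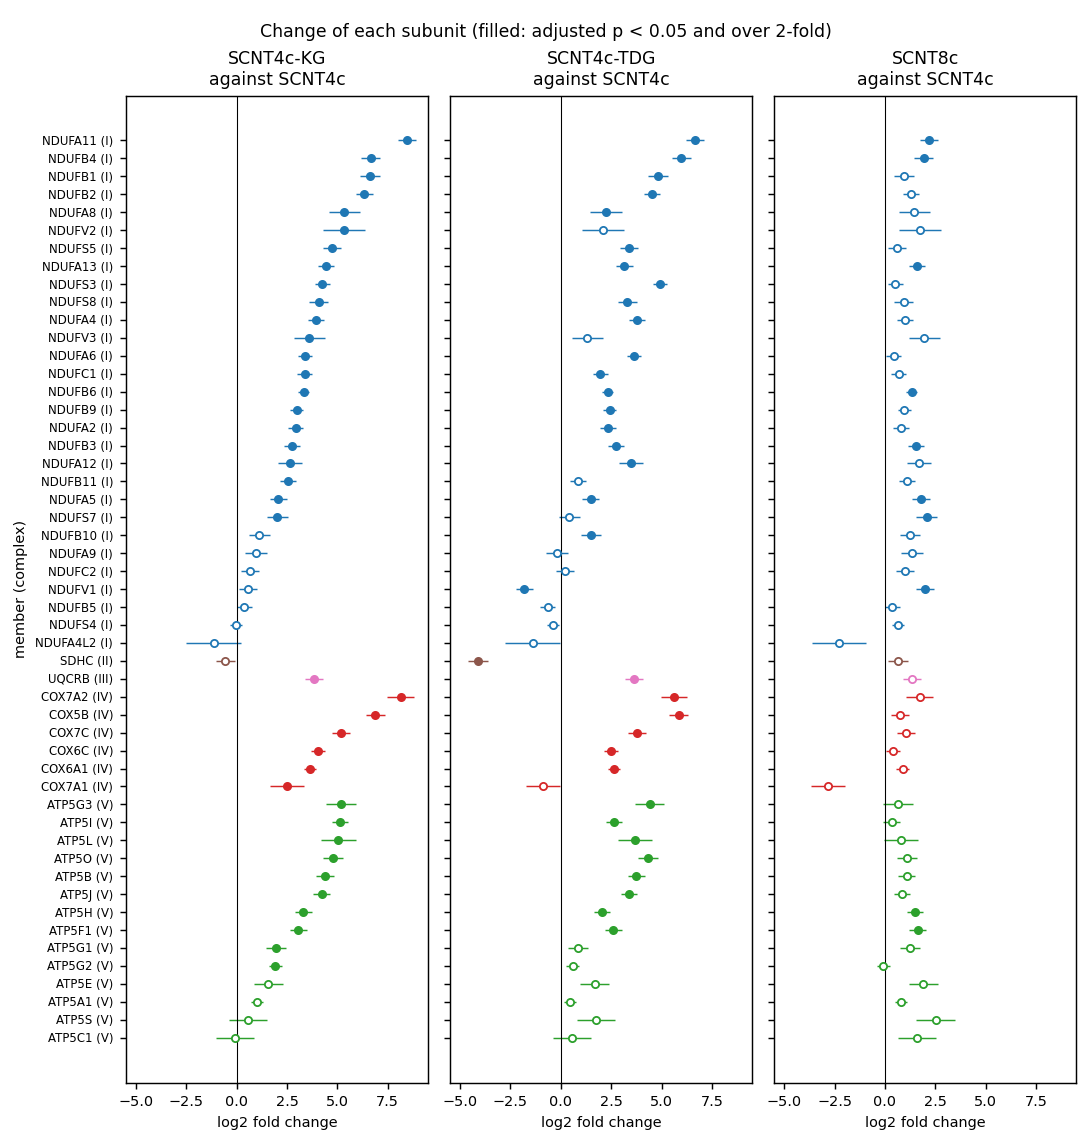
Log2 fold change against SCNT4c of 51 tested members (rows, by complex) in SCNT4c-KG, SCNT4c-TDG and SCNT8c, with bars of ± 1 SE. Filled points passed an adjusted p of 0.05 with a change over 2-fold. Filled points number 39, 35 and 10, and the filled points to the left of 0 are SDHC and NDUFV1 in SCNT4c-TDG.

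The direct comparison of the treatments tests where they differ. In SCNT4c-TDG, 20 of the 52 members were lower than in SCNT4c-KG and 0 were higher, while 16.2% of all features changed, with 9.13% lower and 7.07% higher. The libraries of 40 members did not overlap, against 44.4% of all features. The lower members were 11 of 30 in complex I, SDHC, 5 of 6 in complex IV and 3 of 14 in complex V. The median log2 difference was -1.01 against -0.02 for all features. The largest differences in complex I were those of NDUFV2 (-3.25 ± 1.05 SE, adjusted p = 0.046) and NDUFA8 (-3.10 ± 0.78 SE, adjusted p = 0.013), an accessory subunit with 444, 487 and 281 in SCNT4c-KG and 51.8, 44.5 and 39.02 in SCNT4c-TDG. NDUFV2 had 81.7, 85.02 and 109.7 in SCNT4c-KG, against 14.2, 11.5 and 3.83 in SCNT4c-TDG, with no overlap. NDUFV2 and COX7A1 passed the filter only through SCNT4c-KG, so the filter itself selected for their difference. In complex IV the largest differences were those of COX7A1 (-3.37 ± 0.83 SE, adjusted p = 0.012) and COX7A2 (-2.52 ± 0.66 SE, adjusted p = 0.017), and in complex V ATP5I (-2.51 ± 0.41 SE, adjusted p = 8.69e-04) and ATP5G2 (-1.34 ± 0.32 SE, adjusted p = 0.011). For NDUFS3, higher by mean in SCNT4c-TDG, the difference was 0.68 ± 0.36 (SE, adjusted p = 0.22) and for NDUFA4 it was -0.16 ± 0.39 (SE, adjusted p = 0.82). At an unadjusted p under 0.05, 25 members were lower and 0 higher, beside 16.4% and 13.8% of all features, and edgeR and DESeq2 called 0 higher with 13 and 19 lower, beside 6.76% and 10.9% of all features lower. This count changed with single libraries, and it was 10 without SCNT4c-KG 1, 7 without SCNT4c-KG 2, 10 without SCNT4c-TDG 1, 10 without SCNT4c-TDG 2 and 6 without SCNT4c-TDG 3, all of them lower, beside 5.80% to 6.08% of all features lower in these fits. With every library scaled to the same total, where the median of all features was 0.32, 10 members were lower, beside 6.11% of all features lower and 10.7% higher.

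Transcript length moved with the members' changes in the treated groups. Of the tested members with a median transcript under 700 nt, 22 of 23 rose in SCNT4c-KG with a median log2 fold change of 4.04, against 12 of 20 between 700 and 1400 nt (2.92) and 5 of 9 above that (1.92). Over the 52 members, Pearson's r between the log2 fold change and log10 length was -0.498 and Spearman's rho -0.504, a description across genes that share libraries. Among all known genes with a RefSeq transcript, 49.2% of the 502 under 700 nt rose in SCNT4c-KG, 32.8% of the 1740 in the middle range and 16.4% of the 10257 longest. In SCNT4c-TDG, 20 of 23, 9 of 20 and 4 of 9 members rose in these ranges, against 38%, 24.7% and 16.2% of known genes. The cDNA was amplified by PCR before it was sheared, and the part of length in the members' change was tested only by removing the trend.

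With the length trend of known genes subtracted from each library, an alternative chosen after seeing the data, 34 members rose and 3 fell in SCNT4c-KG and 30 rose and 5 fell in SCNT4c-TDG, while 20.2% and 19.2% of the known genes rose and 19% and 16.2% fell. The members that fell in SCNT4c-KG were then NDUFS4 (-1.55 ± 0.29 SE, adjusted p = 7.89e-04), NDUFC2 (-1.22 ± 0.43 SE, adjusted p = 0.036) and NDUFB5 (-1.14 ± 0.38 SE, adjusted p = 0.026), none of which had passed the test before. The rises lost in SCNT4c-KG were 5, those of COX7A1 (of 328 nt) and ATP5G1, given above, NDUFC1 (0.82 ± 0.38 SE, adjusted p = 0.093), NDUFA12 (0.88 ± 0.58 SE, adjusted p = 0.24) and NDUFS7 (adjusted p = 0.072). In SCNT4c-TDG 3 rises were lost, those of NDUFA8, NDUFB10 and NDUFC1, and NDUFB5, NDUFS4 and COX7A1 became falls. COX5B still rose by 4.61 and 4.69 and ATP5B by 4.38 and 4.15 in SCNT4c-KG and SCNT4c-TDG. Between the treatments, the 20 lower calls became 4 lower (SDHC, NDUFV1, NDUFA8 and ATP5G2) and 2 higher (NDUFS3 at 1.27 ± 0.34 (SE, adjusted p = 0.019) and NDUFA12 at 1.74 ± 0.58 (SE, adjusted p = 0.048)), beside 8.98% of known genes lower and 9.1% higher, so the lower share was near the background.

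**Figure D5:**
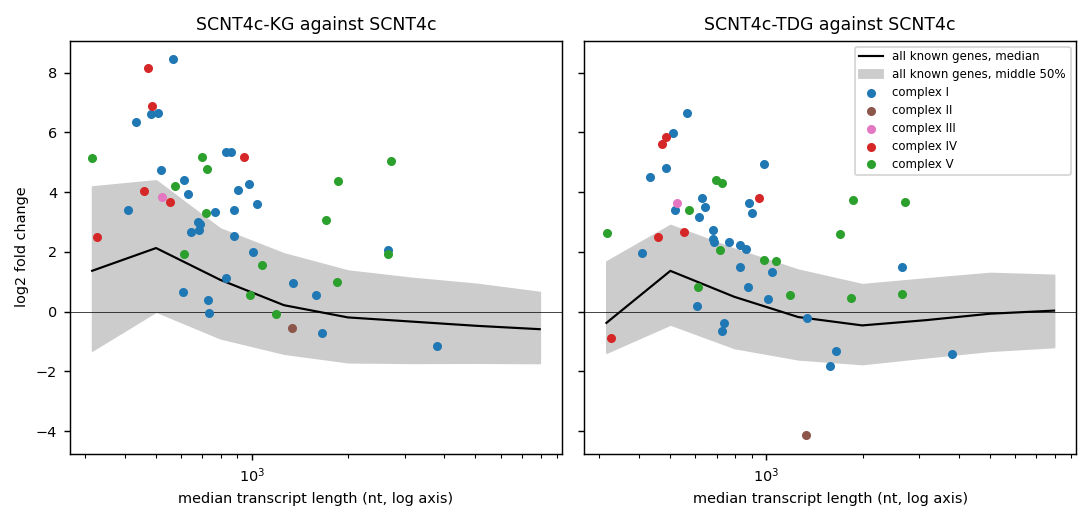
Log2 fold change against SCNT4c (vertical axis) by median RefSeq transcript length (horizontal log axis) in SCNT4c-KG and SCNT4c-TDG. Points are the 52 tested members coloured by complex, the line is the median of all known genes in bins of length and the band their middle 50%. In SCNT4c-KG the line falls from short to long transcripts, and most members lie above it.

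SCNT8c was compared with SCNT4c to ask how the subunits change at the next cleavage. In SCNT8c, 10 of the 52 tested members rose and 0 fell, against 5.79% of all features that changed, 2.62% that rose and 3.16% that fell. The libraries of 12 members did not overlap, against 23.5% of all features. The members' median log2 fold change was 1.05 against -0.31 for all features, and 49 of the 52 had a positive value. In complex I 8 members rose, led by NDUFA11 (2.20 ± 0.44 SE, adjusted p = 0.02), with 77.5, 109 and 43.3 in SCNT8c, and NDUFS7 (2.06 ± 0.52 SE, adjusted p = 0.036), with 2492, 3489 and 879 against 242, 638 and 672 in SCNT4c. NDUFV1, which was lower in SCNT4c-TDG, had 5047, 6496 and 1759 in SCNT8c and rose by 1.98 ± 0.45 (SE, adjusted p = 0.027). The others were NDUFA5, NDUFA13, NDUFB3, NDUFB4 and NDUFB6 in complex I and ATP5F1 and ATP5H, subunits b and d of the peripheral stalk, in complex V. The SCNT8c and SCNT4c libraries of ATP5F1 and ATP5H overlapped.

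This count depended on single libraries. Without SCNT8c library 3, 38 members rose and 1 fell, against 12.4% of all features that rose and 19.9% that fell, and NDUFV1 then rose by 2.55 ± 0.34 (SE, adjusted p = 1.15e-04) and NDUFB4 by 2.52 ± 0.36 (SE, adjusted p = 1.86e-04). The remaining SCNT8c and SCNT4c libraries of 50 members did not overlap, against 57.4% of all features, with 48 members higher. COX7A1 was the member that fell in that fit (-2.79 ± 0.90 SE, adjusted p = 0.026), with 3.73, 0 and 1.06 in the SCNT8c libraries. Without SCNT8c library 1 or 2, or without any of the SCNT4c libraries, limma called 0 members, beside 0.164% to 1.23% of all features. A count of 0 there does not set the members apart. At an unadjusted p under 0.05 limma found between 14 and 28 members higher and 1 lower in these fits. The share of all features at that limit was not counted for them. With all libraries, 30 were higher and 1 lower at an unadjusted p under 0.05, beside 11.12% and 17.81% of all features. With edgeR 12 were called higher and 0 lower, beside 3.53% and 0.913%, and with DESeq2 33 higher and 1 lower, beside 10.4% and 4.07%.

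SCNT4c was compared with PFF to place the untreated embryo beside its donor cells. In SCNT4c, 33 of the 48 tested members were lower and 2 higher, while 78.2% of 19287 features changed, with 38.5% lower and 39.7% higher. The libraries of 43 members did not overlap, against 84.5% of all features. The median log2 difference was -1.72 against 0.07 for all features. The lower members were 19 of 28 in complex I, UQCRB (-1.58 ± 0.39 SE, adjusted p = 0.0089), 3 of 5 in complex IV and 10 of 13 in complex V. Those in complex V include ATP5G3, which passed the filter only through PFF. In complex I the largest differences were those of NDUFB1 (-5.20 ± 0.22 SE, adjusted p = 3.95e-06), with 555, 444 and 483 in PFF and 11.04, 13.1 and 13.3 in SCNT4c, and NDUFA12 (-4.90 ± 0.23 SE, adjusted p = 5.43e-06). With the assembled transcript of its locus added, NDUFA12 had -1.37. In complex IV the largest differences were those of COX5B (-3.69 ± 0.31 SE, adjusted p = 6.28e-05) and COX7C (-3.63 ± 0.23 SE, adjusted p = 1.90e-05), and in complex V ATP5O (-4.87 ± 0.37 SE, adjusted p = 4.14e-05) and ATP5B (-4.46 ± 0.28 SE, adjusted p = 1.74e-05). The higher members were NDUFB5, an accessory subunit of complex I (1.54 ± 0.23 SE, adjusted p = 8.79e-04), and SDHC (1.38 ± 0.38 SE, adjusted p = 0.015).

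Fibroblast and embryo RNA were extracted with different kits, so cell type and extraction cannot be told apart here. NDUFA8, NDUFV2, COX7A2 and ATP5L, tested among the embryos, were under the minimum in this fit. After quantile normalization 23 members were lower and 5 higher, beside 37.7% and 36.4% of all features. On the recovered reads edgeR and DESeq2 each gave 22 lower and 4 higher, beside 30.4% and 30.8% of all features lower and 46.3% and 47.4% higher, with a median over all features of 0.96 and 1.01 in place of 0.07. Side by side with PFF, all 3 SCNT4c libraries lay below all PFF libraries for 40 of the 52 members and above them for 5, against 32.1% and 47% of the 18942 features. For SCNT4c-KG this was 10 below and 36 above, against 30.9% and 45.7%. For SCNT4c-TDG it was 21 below and 24 above, against 31.9% and 50.6%, and for SCNT8c 23 below and 7 above, against 29.4% and 39.2%, or 23 below and 21 above, against 31.9% and 47.1%, without library 3.

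Other genes of the pathway were read from lists of assembly factors, mitochondrial-DNA-encoded subunits and transcriptional regulators. Of 26 tested assembly factors and electron carriers, 11 rose and 2 fell in SCNT4c-KG and 12 rose and 4 fell in SCNT4c-TDG, beside 17.6% and 19.6% of all features that rose and fell in SCNT4c-KG and 15.7% and 17.6% in SCNT4c-TDG. This list also holds NDUFAB1, whose symbol falls outside the rule for members. CYCS, the electron carrier cytochrome c, had 1568, 2972 and 1992 in SCNT4c, 33121, 32662 and 30484 in SCNT4c-KG and 14258, 16587 and 16711 in SCNT4c-TDG, and rose by 3.93 ± 0.25 (SE, adjusted p = 3.57e-08) and 2.91 ± 0.25 (SE, adjusted p = 1.08e-06) on the log2 scale. NDUFAF4, an assembly factor of complex I, and SCO2, a copper chaperone of complex IV, rose in SCNT4c-KG by 7.30 and 6.08 and in SCNT4c-TDG by 3.39 and 3.06. They had only 7 and 4 reads over the SCNT4c libraries and passed the filter through the other groups, SCO2 through SCNT4c-KG alone, so these values depend on the added 1 and their size was not ranked. COX17, another chaperone that delivers copper to complex IV, had 413, 621 and 556 in SCNT4c and rose by 4.87 and 2.28. SDHAF3 and SDHAF2, assembly factors of complex II, fell in SCNT4c-TDG by 2.54 and 1.73, while SDHAF1, another of them, rose there (1.56 ± 0.48 SE, adjusted p = 0.021). LYRM7, an assembly factor of complex III, fell in SCNT4c-KG (log2 fold change -2.82) and SCNT4c-TDG (-2.35), and TACO1, a translational activator of a complex IV subunit, fell in SCNT4c-TDG (-3.48), from 91 reads over the SCNT4c libraries, through which alone it passed the filter, to 5. In SCNT8c 5 of these genes rose and 1 fell, and between the treatments 2 were higher and 10 lower in SCNT4c-TDG, beside 2.62% and 3.16% of all features in SCNT8c and 7.07% and 9.13% between the treatments. Without SCNT8c library 3, 10 of 25 rose and 1 fell, beside 12.4% and 19.9% of all features. Against PFF 6 of 25 were higher and 12 lower in SCNT4c, beside 39.7% and 38.5% of all features. NDUFAF1, another assembly factor of complex I, had 1 read over the SCNT4c libraries and 1616 in PFF, through which alone it passed the filter there. TACO1, higher in SCNT4c than in PFF, passed that filter only through SCNT4c.

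Of the 13 subunits encoded in mitochondrial DNA, 9 were listed at 0 in every group. Of the 4 tested, CYTB, ND4 and ND6 rose in SCNT4c-KG by 1.79, 2.00 and 2.81 and in SCNT4c-TDG by 3.68, 2.84 and 4.08 on the log2 scale. Over all features, 17.6% rose in SCNT4c-KG and 15.7% in SCNT4c-TDG. ND5 rose in SCNT4c-TDG (1.77) and its value in SCNT4c-KG was 0.18. CYTB and ND5 were also higher in SCNT4c-TDG than in SCNT4c-KG, by 1.89 and 1.59, while no nuclear-encoded member was in the same fit, although NDUFS3 and NDUFA12 were with the length trend removed. Of the 10 tested regulators, 7 rose in SCNT4c-KG and 6 in SCNT4c-TDG, beside 17.6% and 15.7% of all features. NRF1, the factor whose letters were searched above, rose in SCNT4c-KG (1.78 ± 0.34 SE, adjusted p = 8.61e-04) and had 0.14 ± 0.34 (SE, adjusted p = 0.78) in SCNT4c-TDG. TFAM, which packages mitochondrial DNA, rose in SCNT4c-KG by 1.10, and SIRT1, a deacetylase of PGC-1 alpha, rose by 1.17 and 2.89. PPARGC1A, which encodes PGC-1 alpha, had -0.44 and -1.24 and passed in neither. In SCNT8c none of the 4 mitochondrial-DNA-encoded genes or 10 regulators passed the test, beside 2.62% of all features that rose and 3.16% that fell. Without library 3, ND6 and the regulators TFB2M and YY1 rose, beside 12.4% of all features. Against PFF, 1 of the 4 mitochondrial-DNA-encoded genes was higher and 1 lower in SCNT4c, as were 4 and 4 of 12 regulators, shares of each below those of all features. Among these regulators, NFE2L2, PPRC1 and TFB1M were lower and passed the filter only through PFF. PPARGC1A was higher and passed it only through SCNT4c, so the filter itself selected for these directions. PPRC1, a PGC-1-related coactivator, rose by 4.20 and 2.94 in the treated groups, from 19 reads over the SCNT4c libraries. Its means were 5.05 in SCNT4c, 2.42 in SCNT8c, 70.2 in SCNT4c-KG and 30.7 in SCNT4c-TDG. PPRC1 is counted among the regulators that rose, but it passed the filter through the treated groups, so the filter favoured its rise.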

How the data were processed

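RNA-seq reads of fibroblasts and pools of 30 embryos were analysed from 1 table of normalized counts. Per the labels and the methods, the authors amplified cDNA by PCR and sonicated it, sequenced paired ends, trimmed reads with Trimmomatic 0.39, mapped them to Sscrofa11.1 with STAR 2.5.3a, added transcripts assembled with StringTie 2.1.2, counted reads with HTSeq and scaled them with DESeq2. The deposited signal values are thus counts divided by a size factor, and 100% of them were whole multiples (within 0.02 reads) of the value of 1 read in each library, from which reads were recovered. Rows repeating a gene ID (241 of 43535) were removed, which left 43294 features, of which 15070 were assembled transcripts. Strand use in counting is not given in the sources used here, so overlapping genes cannot be told apart.

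The test was limma 3.58.1 (trend, R 4.3.3) on log2(value + 1), run on features whose mean in the fitted libraries reached 10, with Benjamini-Hochberg adjustment over all features and a call at an adjusted p under 0.05 and over 2-fold. Embryo comparisons used all 12 embryo libraries, and SCNT4c against PFF used 6. Alternatives used edgeR 4.0.16 and DESeq2 1.42.0 on recovered reads, and the scripts were tested on simulated data. The labels conflict over the untreated 4-cell columns, whose names the descriptions also give to KG samples, so columns were assigned by the group in their name and the untreated libraries, not tied to single samples, are called a, b and c. Depth ran from 12354649 to 22868038 recovered reads, and a count of 0 is read as a listing only. Transcript lengths, coordinates and promoters are from RefSeq on Sscrofa11.1, which matched 69 members. Members, gene lists and tests were chosen with earlier results of these data known. Named with full statistics are, for each complex and comparison, the 2 largest rises and 2 largest falls among changed members whose libraries do not overlap, then fixed core subunits and isoform pairs, and members under the minimum as such. From the other lists, those with the largest changes are named. Any other gene given with values was chosen after its values were seen. A tested member counted in the totals is not reported here by name. Same-numbered libraries did not deviate together (r from -0.0611 to 0.196), so no pairing was used.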

Additional observations from a re-analysis of the deposited data

How the results depend on the processing

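The members called in SCNT4c-KG, SCNT4c-TDG and SCNT4c against PFF numbered within 1.5 times the reported 39, 36 and 35 under every alternative run, and leaving out a library gave 38 to 40, 32 to 35 and 32 to 35. For SCNT4c-TDG against SCNT4c-KG, 20 calls became 10 with the same total in each library, 13 with edgeR, 6 without the length trend and 6 to 15 without a library. Of all features these fits called 16.9%, 13.5%, 18.1% and 9.445% to 13.35%, against 16.2% as reported. For SCNT8c, 10 calls became 4 with all features above 0, 34 with DESeq2, 0 in a fit of only the 2 groups (13 higher and 0 lower at an unadjusted p under 0.05) and 0 to 39 without a library. Of all features these fits called 1.67%, 14.4%, 0% and 0.164% to 32.3%, against 5.79% as reported. The share of all features at the unadjusted limit was not counted there. The causes were not tested. The length trend, its 9-library partner fit and the count of members with a mean of 10 in the reference group were chosen after seeing the data. Scaling to the same total moved the median log2 value of all features from 0.07 to 0.67 in SCNT4c against PFF and from -0.02 to 0.32 in SCNT4c-TDG against SCNT4c-KG.

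The replicate block was fitted only for SCNT4c-TDG against SCNT4c-KG, since the SCNT4c columns carry no number that the labels support, and it gave 20 calls over 9 libraries, as did the same fit without the block. Of all features, 14.97% were called with the block and 14.73% without it. Same-numbered libraries share only a number.

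Of 1511 alternative values for 88 named changes, those of ATP5L and NDUFA12 included, 1344 kept their direction and side of the threshold, 101 lost the call, 28 gained it and 38 changed sign. Of these, 5 were called changes, COX7A1 in SCNT4c-KG and COX6A1 between the treatments without the length trend and, with locus transcripts added, ATP5L in SCNT4c-KG (-1.72) and SCNT4c-TDG (-0.92) and NDUFA12 in SCNT4c-KG (-0.0059). The signs changed without the length trend for COX7A1 in SCNT4c-KG (-0.41), ATP5G1 in SCNT4c-TDG (-0.085), ATP5G2 in SCNT8c (0.088) and against PFF (0.97), and NDUFA4 (0.76), COX6A1 (0.015) and ATP5G3 (0.065) between the treatments. With locus transcripts added they also changed between the treatments for ATP5L (0.79) and in SCNT8c for NDUFA12 (-0.18), NDUFA4L2 (0.87), COX7A2 (-1.01) and ATP5G3 (-1.35). NDUFA4L2 became 0.12 with edgeR, 0.17 with DESeq2 and -2.29 to 0.50 without a library in SCNT4c-KG, and between the treatments 0.68 with a pseudocount of 0.1, 0.049 with the same total and -1.90 to 0.89 without a library. ATP5G2 in SCNT8c became 0.023 (quantile), 0.071 (edgeR), 0.16 (DESeq2) and -0.23 to 0.044 (without a library), and against PFF 0.82 (quantile), 0.45 (same total), 0.58 (edgeR) and 0.62 (DESeq2). COX6A1 against PFF became 0.072 (same total), 0.21 (edgeR) and 0.25 (DESeq2). Between the treatments NDUFA4 became 0.31 (quantile), 0.20 (same total) and 0.0028 (edgeR), and with quantile normalization ATP5A1 became 0.0086 and ATP5B 0.017.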
